A study of Mus musculus with 20 samples.

Results

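Single genes were compared between Katnal2-KO and WT mouse brains at P21, that is, at 3 weeks of age. Members were the genes with a mean normalized count of at least 10 over the 10 P21 mice, which left 17610 of the 19463 genes measured. A normalized count is the number of reads assigned to a gene divided by a size factor that brings the mice to a common scale. Among these genes, 81 had KO and WT values that did not overlap, meaning that every KO mouse lay on the same side of every WT mouse, and 45 of them were higher and 36 lower in KO mice.

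The study asked what the loss of Katnal2 does to the brain transcriptome at a juvenile and at an adult age, and sequenced poly-A RNA of 20 whole brains, 5 per genotype at 3 weeks (P21) and 5 per genotype at 10 weeks (P70). All mice were male and of the C57BL/6J strain, to which the line had been backcrossed for over 5 generations. KO mice descend from Katnal2tm1a(EUCOMM)Wtsi embryonic stem cells. Their allele was made in the germline by Protamine-Flp mating and then by HTNC, a cell-permeable Cre recombinase given to embryos, so exon 3 is missing from every cell and the reading frame shifts. WT mice carry the intact gene, and neither genotype received a further treatment. The normalized counts of each P21 mouse summed to between 27641505 and 28042479. These sums are near equal because of the scaling, so the number of reads behind each library is unknown. The mice correlated with one another at 0.982 to 0.991 across genes on the log2 scale. KO mouse 3 stood apart on the first principal component of the P21 mice, with WT mouse 3 nearest to it (coordinates of 40.2 and 23.6, with 21.6% of the variance). The labelled tissue held its defining transcripts in quantity, with a mean of 27830 normalized counts of Slc17a7, the vesicular glutamate transporter of cortical excitatory neurons, in WT mice.

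Katnal2 belongs by sequence to the katanins, AAA ATPases that cut microtubules, the tubulin polymers that form the core of the cilium and the tracks of axonal transport. In the brain, motile cilia stand on ependymal cells lining the ventricles and move the cerebrospinal fluid, which the choroid plexus secretes. A whole brain mixes neurons, glia, ependyma, choroid plexus, vessels and the blood left in them. In such bulk RNA, fewer cells of a type and less RNA per cell of that type cannot be told apart.

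Some genes below have close copies elsewhere in the genome, and reads from such copies may be assigned to either. The sequences of 3 pairs show how alike they can be. Each window is 100 coding bases long, 5′ to 3′, from GENCODE M21 transcripts on GRCm38, and is the stretch in which the pair differs most. Capitals mark the bases that differ between the members. Aph1c (chr9:66814994-66834726, minus strand) and Aph1b (chr9:66775202-66795490, minus strand) lie side by side, and 96.2% of 771 aligned coding bases were identical. The window covers coding bases 1 to 100, where 13 differ.

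Aph1c: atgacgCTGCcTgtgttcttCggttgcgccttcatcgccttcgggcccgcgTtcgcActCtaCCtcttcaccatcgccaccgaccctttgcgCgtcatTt

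Aph1b: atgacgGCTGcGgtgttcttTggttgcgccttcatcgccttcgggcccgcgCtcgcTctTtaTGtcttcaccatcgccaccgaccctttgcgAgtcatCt

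Xlr3b (chrX:73192207-73202930, plus strand) and Xlr3a (chrX:73086293-73097095, minus strand) were identical at 98.2% of 678 coding bases. Coding bases 315 to 414 are shown, where 4 differ.

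Xlr3b: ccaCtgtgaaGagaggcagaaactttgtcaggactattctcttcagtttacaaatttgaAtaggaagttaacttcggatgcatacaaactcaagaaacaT

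Xlr3a: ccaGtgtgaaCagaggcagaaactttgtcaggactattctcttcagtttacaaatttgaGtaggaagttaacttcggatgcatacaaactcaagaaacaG

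Nudt10 (chrX:6168696-6173015, minus strand) and Nudt11 (chrX:6047453-6055110, plus strand) differed at 1 of 492 coding bases, which is the last of the stretch from coding base 297 to 396.

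Nudt10: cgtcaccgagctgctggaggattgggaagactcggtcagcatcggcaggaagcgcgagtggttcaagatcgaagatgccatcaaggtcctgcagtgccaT

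Nudt11: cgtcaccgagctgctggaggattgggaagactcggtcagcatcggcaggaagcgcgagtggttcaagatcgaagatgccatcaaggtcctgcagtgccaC

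Katnal2 itself lies on chromosome 18 (76977148 to 77047308, minus strand, GRCm38). Its normalized counts were 96, 93.99, 78.13, 80.95 and 95.89 in KO mice 1 to 5, against 113.4, 100.2, 115.4, 99.34 and 108.5 in WT mice 1 to 5. Every KO mouse lay below every WT mouse, although most of the signal remained. The means were 89.0 ± 8.72 in KO mice against 107.4 ± 7.38 in WT mice (SD, n = 5 each), a KO minus WT difference of -0.27 in log2(value + 1) (standard error 0.10). An exact two-sided permutation test of this gene alone gave p = 0.00794, the smallest that 5 against 5 mice allow, and the p adjusted over all genes was 1 (limma, Benjamini-Hochberg). Every gene with separate groups gets this exact p, so it restates the separation and adds no support to it. At P70 the Katnal2 difference was -0.21 (standard error 0.13, exact two-sided permutation p = 0.0794), and the groups overlapped. Gene-level counts also collect transcript from the exons that the deletion leaves, so a remaining signal does not speak to the protein. Of 52 genes tested within 5 Mb of Katnal2, itself included, Katnal2 alone had separate groups or an unadjusted p under 0.05 (limma). Over all genes tested, 0.46% had separate groups and 2.44% such a p, so the count near Katnal2 is close to the latter share. The median difference of the 52 was 0.02.

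The other katanin catalytic subunits had overlapping groups. Katna1 averaged 245.4 ± 15.1 in the KO and 250.5 ± 21.6 in the WT mice, and Katnal1 2236 ± 139 and 2211 ± 213 (SD, n = 5 each). Exact two-sided permutation tests gave p = 0.714 and p = 0.833. The sign of the difference turned to 0.01 for Katna1 without WT mouse 2, and to -0.02 and -0.03 for Katnal1 without KO mouse 4 or WT mouse 3. At P70 Katna1 differed by -0.19 (exact two-sided permutation p = 0.0317, adjusted p of 1 over all genes in limma) and Katnal1 by -0.05 (exact p = 0.754), with overlapping groups for both. Among the 9 katanins and related microtubule-severing ATPases listed, Katnal2 alone had separate groups with lower values in KO, and Fignl1 alone with higher ones. Over all genes tested these shares were 0.204% and 0.256%. Fignl1, fidgetin-like 1, an AAA ATPase known for its part in DNA repair, had 24.98, 23.09, 26.95, 21.65 and 27.34 normalized counts in KO mice against 16.77, 11.95, 17.76, 20.81 and 18.21 in WT mice. KO mouse 4 and WT mouse 4 came closest to each other, and the other mice lay further apart. All 16 tubulin genes listed had overlapping groups and an unadjusted p over 0.05 (limma), with a median difference of -0.01. Over all genes tested only 0.46% had separate groups and 2.44% an unadjusted p under 0.05, so so short a list would seldom hold such a gene.

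Across all genes, 0 of the 17610 (0%) had an adjusted p under 0.05 at P21 in limma. An unadjusted p under 0.05 was found for 429 genes, which is 2.44% of those tested, 262 of them higher (1.49%) and 167 lower in KO mice (0.948%). The genes with separate groups made up 0.46% of those tested, 0.256% on the higher and 0.204% on the lower side. These counts used the P21 values themselves, so the values that follow describe the genes and are no test of them. The 9 genes that differed by over 1.5-fold comprised 7 higher ones (Xlr3b, Adh1, C530025M09Rik, Gm31881, Tgm7, Onecut3 and Krt18) and 2 lower ones (Flicr and Sh3tc1). In 25 genes the fold was under 1.1, and the median absolute difference over the 81 was 0.23, against 0.05 over all genes tested. In 20 of the 81 the unadjusted p was 0.05 or more. The balance between the directions depended on the scale: 45 higher and 36 lower genes became 37 and 48 after quantile normalization of the 10 mice and 39 and 42 after scaling to equal trimmed sums.

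**Figure D1:**
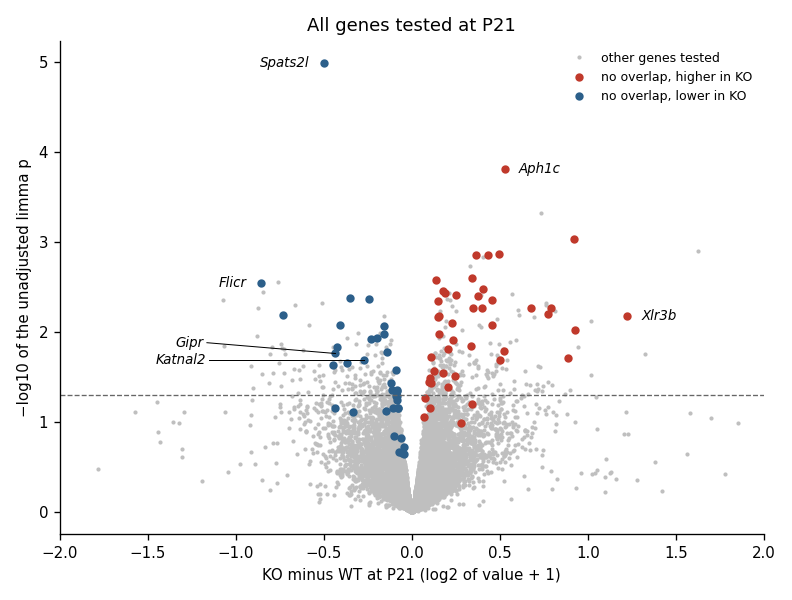
Each point is a gene tested at P21, with the KO minus WT difference in log2(value + 1) on the horizontal axis and -log10 of its unadjusted limma p on the vertical axis, and 18 genes beyond a difference of 2 in either direction lie outside the plot. The 45 red and 36 blue points are genes with separate KO and WT values, the dashed line is an unadjusted p of 0.05, and Spats2l stands highest with an adjusted p of 0.181.

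Spats2l (chr1:57774162-57948394) had the smallest p of all genes. It had 614.3, 600.4, 598, 573.4 and 574.1 normalized counts in KO mice 1 to 5 and 819.2, 846.8, 721, 985.4 and 838.8 in WT mice 1 to 5. The KO mice lay within a narrow band, all below WT mouse 3, the lowest WT mouse. The means were 592 ± 17.8 in KO mice against 842.3 ± 94.5 in WT mice (SD, n = 5 each), a difference of -0.50 in log2(value + 1) with a standard error of 0.07. The adjusted p was 0.181 (limma, Benjamini-Hochberg over 17610 genes), and the next smallest adjusted p of any gene was 0.988. Leaving out each mouse in turn gave adjusted p-values from 0.0215 to 0.834. The lowest, with a difference of -0.56, came without WT mouse 3, the WT mouse nearest to the KO mice, and the others were all over 0.05. No 31-base word of its GENCODE M21 transcripts occurred in those of another gene. In the P70 mice, which had no part in choosing it, Spats2l had 530.5 ± 67.8 in KO mice against 563.6 ± 77.9 in WT mice (SD, n = 5 each), and the difference of -0.08 (standard error 0.12) had an adjusted p of 1 (limma). The P70 minus P21 change of its difference was 0.42, with an unadjusted p of 0.00702 and an adjusted p of 1 for the age by genotype interaction (limma, all 20 mice). That interaction uses the P21 values by which Spats2l was picked, so its p is a description and no test.

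Among the higher genes, Aph1c had the smallest p. It encodes a form of Aph-1, a subunit of γ-secretase, the membrane protease that cleaves Notch and the amyloid precursor protein. KO mice 1 to 5 had 292.1, 278.4, 371.3, 296.3 and 297.3 normalized counts, and WT mice 257.7, 212.7, 202.4, 189.8 and 201.1. KO mouse 3 was the highest and WT mouse 1 came nearest to the KO mice. The means were 307.1 ± 36.7 and 212.8 ± 26.4 (SD, n = 5 each), a difference of 0.53 with a standard error of 0.10. Of its 31-base words, 25.3% occurred in other genes and 24.6% in Aph1b, its neighbour in the sequence pairs above. At P70 Aph1c had 262.8 ± 59.9 in KO mice against 225.4 ± 16.2 in WT mice, with a difference of 0.19 (standard error 0.15, adjusted p of 1 in limma), and the groups overlapped.

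**Figure D2:**
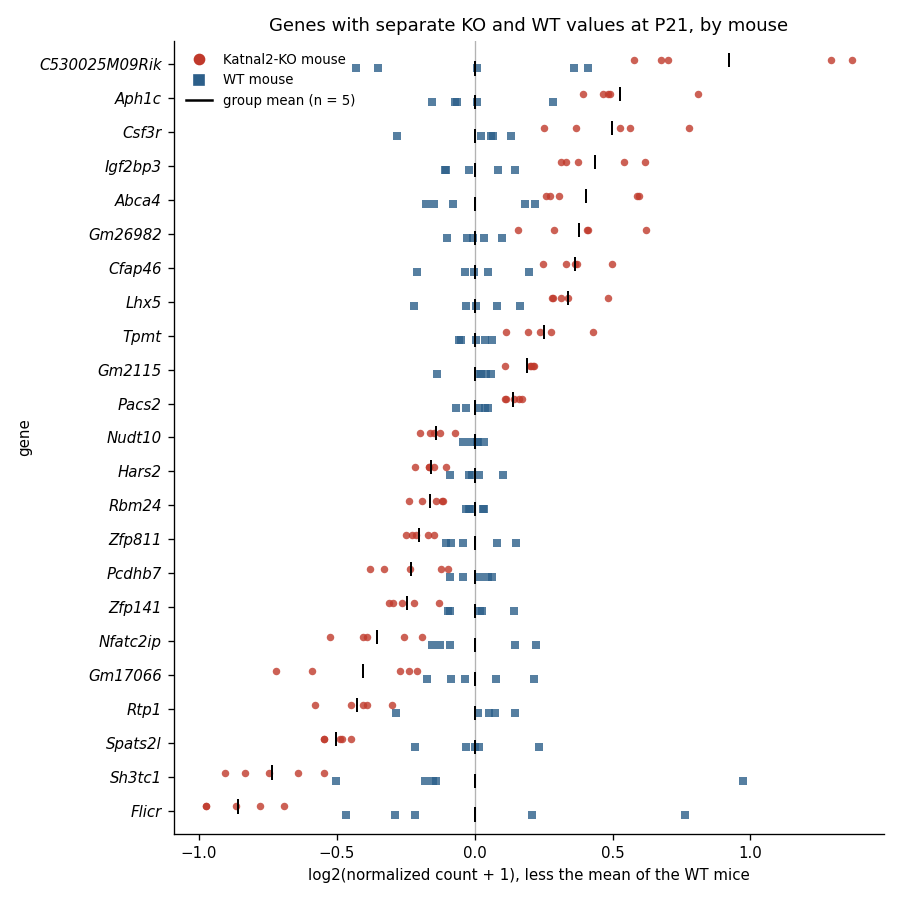
Of the 12 higher and 12 lower genes with the smallest p among those with separate groups at P21, 11 and 12 are drawn, each mouse as a point (KO circles, WT squares) and each group mean of 5 mice as a black bar, on a log2(value + 1) axis set to 0 at the WT mean of each gene. The gap between the groups is narrow in most genes, and for Sh3tc1 WT mouse 5 (158.7) and for Flicr WT mouse 1 (50.84) lie far above the other WT mice.

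Receptors and immune genes were found on both sides. Csf3r, the receptor for granulocyte colony-stimulating factor, is best known from neutrophils and had 115.4, 137.5, 118.2, 95.2 and 103.3 normalized counts in KO mice against 83.5, 81.05, 65.53, 83.25 and 87.4 in WT mice. KO mouse 4 was the nearest to the WT mice. The neutrophil genes on the blood list were near or under the minimum mean (S100a9 11.3 ± 11.7 in KO mice against 10.8 ± 8.90 in WT mice, Ngp and Ltf under a mean of 10), and the red-cell genes were lower in KO mice, as given below. Flicr, a non-coding RNA at the Foxp3 locus of regulatory T cells (chrX:7573600-7581027), had 16.83, 14.58, 15.78, 14.57 and 17.95 in KO mice against 50.84, 21.14, 25.36, 24.06 and 34.32 in WT mice. The lowest WT mouse still exceeded the highest KO mouse. WT mouse 1 was far above the others, and the difference of -0.86 was -0.67 without it. At P70 the difference in Flicr was 0.49 (standard error 0.26), on the opposite side. Trim34a, of an interferon-related family of ubiquitin ligases, and Tnfsf9, the ligand of 4-1BB on T cells, were both lower in KO mice at P21, with differences of -0.37 and -0.34. For Trim34a 68.5% of the 31-base words were shared with other genes, mostly with Trim34b. Among 25 interferon-induced genes tested, 18 had differences below 0, with a median of -0.08, and 1 (Rsad2, difference -0.62) had an unadjusted p under 0.05, against 2.44% of all genes. Mx1, an antiviral GTPase of that list, fell short of the minimum mean and was not tested. It had 3.007, 4.252, 5.321, 4.719 and 1.442 in KO mice against 14.38, 18.04, 7.804, 18.18 and 7.056 in WT mice, which did not overlap. These values rest on few reads, and Mx1, which is not a member, was picked after they were seen.

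Several transcription factors with homeobox or POU domains were among the 81, picked out after their values were seen. Lhx5, which patterns the forebrain and hypothalamus in development, had 168.1, 172.1, 193.8, 175.4 and 168.5 normalized counts in KO mice against 146.4, 155.2, 135.3, 118.6 and 138.9 in WT mice. The highest WT mouse stayed under the lowest KO mouse, and KO mouse 3 was again the highest. Irx3, of the Iroquois family, had 98.11, 96.4, 127.5, 101.1 and 100.2 in KO mice against 80.14, 80.17, 82.29, 87.45 and 77.88 in WT mice, with KO mouse 3 far above the others. Onecut3 had means of 18.6 ± 4.85 and 10.3 ± 1.60, so a difference of 0.78 rested on few reads. Pou4f2, known from retinal ganglion cells, went the other way, with 19.4 ± 2.21 in KO mice against 26.9 ± 3.86 in WT mice. Its P70 difference was on the same side at -0.45 (standard error 0.24). At P70 Lhx5 had a difference of -0.11, Irx3 one of 0.11 and Onecut3 one of 0.30, and all 4 genes had an unadjusted limma p over 0.05. KO mouse 3 also held pituitary and Hoxb8 transcripts, given at the end, and without it the P21 differences were 0.30 for Lhx5 and 0.28 for Irx3. The part of such tissue in these values was not tested.

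RNA-binding and translation genes included Igf2bp3, a binder of fetal messenger RNAs, with 90.39, 93.32, 110.6, 89.26 and 104.7 normalized counts in KO mice against 76.18, 66.57, 79.43, 66.48 and 70.67 in WT mice. Its groups were among the best separated of the higher genes, with a gap of 0.17 on the log2 scale between the lowest KO and the highest WT mouse. Rbm24, a splicing regulator known from muscle, was lower, with 398.8, 412.3, 426.8, 433.9 and 434.7 in KO mice against 461.2, 482.2, 464.2, 465.4 and 481.1 in WT mice, a small but regular difference of -0.16. Hars2, the mitochondrial histidyl-tRNA synthetase, had 711.6 ± 19.9 in KO mice against 794.7 ± 39.0 in WT mice. Hnrnpll, a splicing regulator of lymphocytes and neurons, differed by -0.08 with an unadjusted p of 0.0566 (limma). At P70 none of these genes passed an unadjusted p of 0.05.

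Trafficking genes and a few others had many reads and small differences. Pacs2, a sorting protein at contacts between endoplasmic reticulum and mitochondria, had 7106, 6816, 7052, 6818 and 6961 normalized counts in KO mice against 6174, 6522, 6018, 6373 and 6470 in WT mice. These means of 6950 ± 133 and 6311 ± 211 (SD, n = 5 each) differ by 10.2%, and no WT mouse reached a KO mouse. Gm2115, of little known function, had 749.1 ± 22.4 and 657.6 ± 34.5. Further genes with small differences on the higher side were Arfip2, Vac14, Tex261, Syt3 and Atp11a, with differences of 0.15, 0.15, 0.15, 0.11 and 0.20, and on the lower side Stx12, Mal2 and Psmf1 with -0.04, -0.08 and -0.05.

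Several enzymes and transporters, picked after their values were seen, lay on either side. Tpmt, thiopurine methyltransferase, had 309.3, 364.2, 318.6, 292.5 and 327.8 normalized counts in KO mice against 261.1, 277, 271.2, 259.9 and 282.3 in WT mice. Abca4, a lipid transporter known from photoreceptors, had 164.7, 170.2, 207.6, 166.5 and 208.2 in KO mice against 156.4, 121.7, 124, 130.2 and 160.2 in WT mice, so that KO mice 3 and 5 were well above the other 3, which were close to the highest WT mice. Ppp1r3b, a subunit that directs protein phosphatase 1 to glycogen, had 52.92, 58.21, 56.37, 49.86 and 61.63 in KO mice against 41.31, 45.74, 42.69, 39.17 and 41.01 in WT mice. Tgm7, a transglutaminase, and Adh1, an alcohol dehydrogenase, sat near the minimum mean of 10, with 13.9 ± 2.76 against 7.55 ± 1.11 and 13.5 ± 2.42 against 6.99 ± 2.95. A difference of a few reads counts for much at this level, so their folds of 1.73 and 1.90 are imprecise. On the lower side Dhcr7, which completes cholesterol synthesis, had 1165 ± 64.7 in KO mice against 1256 ± 24.3 in WT mice, and Nudt10, a diphosphoinositol polyphosphate phosphatase, had 463.5, 475.8, 506.8, 487.3 and 479.6 in KO mice against 545.1, 526.7, 534.7, 516.6 and 536.3 in WT mice. Nudt10 reads can hardly be told from those of Nudt11 over the coding sequence.

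Genes of the cell surface and the neuronal skeleton with lower values included Pcdhb7, a clustered protocadherin that gives neurons an adhesive identity, with 211.2, 173.8, 179.7, 192.2 and 207.8 normalized counts in KO mice against 233.7, 219.4, 212.5, 236.5 and 229.2 in WT mice. KO mouse 1 and WT mouse 3 nearly touched. Cdh2, N-cadherin, and Actr2, a subunit of the actin-branching Arp2/3 complex, had separate groups with folds under 1.1 (differences of -0.06 and -0.05). On the higher side, Ina, the neurofilament protein α-internexin, and Calb1, the calcium buffer of Purkinje cells and interneurons, differed by 0.08 and 0.11, and Emilin2, of the extracellular matrix, by 0.45. Krt18, a keratin of simple epithelia, had 33.34, 35.98, 34.81, 35.79 and 31.38 in KO mice against 16.24, 26.21, 14.42, 23.19 and 28.77 in WT mice. Here the KO mice were alike and the spread was among the WT mice.

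The remaining genes with small p on the lower side were 2 zinc-finger genes, a signalling gene and genes of little known function. Zfp141 and Zfp811 differed by -0.24 and -0.20, and Nfatc2ip, which binds the transcription factor NFATc2, by -0.35. Sh3tc1 had 44.7, 51.16, 42.45, 54.75 and 47.5 in KO mice against 72.8, 70.68, 72.15, 56.45 and 158.7 in WT mice. WT mouse 5 stood far above the rest. The difference was -0.73 with it and -0.49 without it. Rtp1, which helps odorant receptors reach the membrane, had 25.2 ± 1.82 in KO mice against 34.2 ± 3.80 in WT mice. Of 5 olfactory-bulb markers, which do not include Rtp1, 4 had differences below 0 (Eomes, Doc2g, Cdhr1 and Tbx21), all with overlapping groups. The summed level of the 5 ran from 752.1 to 1112 in KO mice and from 768.9 to 1553 in WT mice. The part of olfactory bulb tissue in the Rtp1 values was not tested. The non-coding genes Gm17066, lower in KO, and Gm26982, higher in KO, differed by -0.41 and 0.38. The libraries were made with a kit that does not mark strand, so reads of the antisense genes Gm26982, Flicr, Gm31881 and Gm19719 cannot be told from those of the genes on the opposite strand where they overlap. Those genes (Ghrl, Ppp1r3f and Gm36995, Gipc2 and Alox5ap) had differences of 0.26, 0.04 and -0.06, -0.19 and -0.13, each with an unadjusted p over 0.05.

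The P70 mice shared no animal with the P21 mice and were not used to choose the 81 genes. Of these, 80 were also tested at P70, and 41 had a difference on the same side as at P21 and 39 on the opposite side. That is 51.2%, and over all 17293 genes tested at both ages the share was also 51.2%. The higher genes kept their side in 17 of 44 cases and the lower ones in 24 of 36. The share by direction over all genes was not computed, so this split does not show that either side persisted. The median absolute P70 difference of the 80 was 0.05, against 0.06 for all genes tested at P70. With an unadjusted p under 0.05, which 1.13% of all genes reached at P70, there was 1 gene on the P21 side and 0 on the other. For 15 of the 80 the age by genotype interaction had an unadjusted p under 0.05 (1.68% over all 17637 genes tested), and for 0 genes an adjusted one (limma). The interaction uses the P21 values that chose these genes, so that count is a description.

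**Figure D3:**
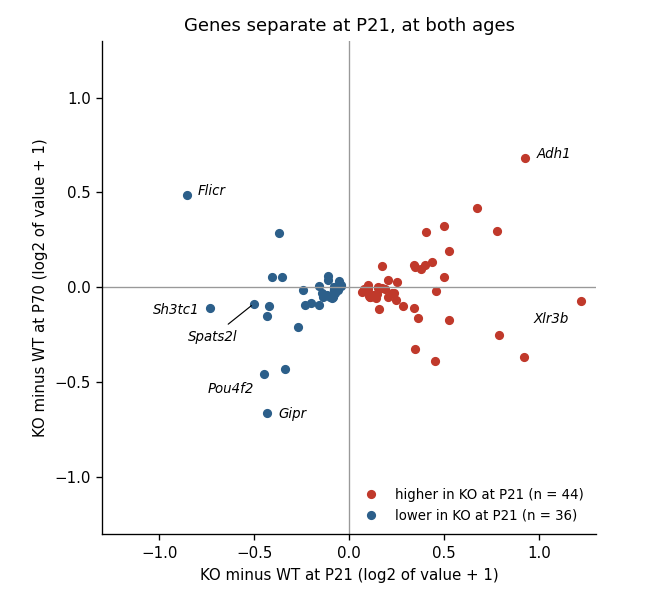
KO minus WT differences in log2(value + 1) at P21 (horizontal) and P70 (vertical) for the 80 genes with separate groups at P21 that were tested at both ages. At P70 the points scatter around 0 on both sides, with Gipr the lowest at -0.66, Adh1 the highest at 0.68 and Flicr on the opposite side from P21.

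That gene was Gipr (chr7:19156061-19166127, minus strand), the receptor for glucose-dependent insulinotropic polypeptide, an incretin hormone of the gut. At P21 it had 57.37, 42.15, 34.15, 55.58 and 55.14 normalized counts in KO mice against 60.43, 62.16, 74.17, 60.23 and 69.8 in WT mice. KO mice 2 and 3 were the lowest, and KO mouse 1 came close to WT mice 1 and 4. At P70 the KO mice had 49.44, 43, 54.31, 48.02 and 52.79 and the WT mice 84.05, 82.15, 81.84, 68.19 and 77.33. There the groups lay further apart, and Gipr was the only one of the 81 genes with separate groups on the same side at both ages. The P70 difference was -0.66 with a standard error of 0.13. The p adjusted over all 17613 genes was 1 (limma). Gipr is singled out here for its P70 values, and 1 gene of 80 is a share near the 1.13% of all genes. The P70 minus P21 change of its difference was -0.23, with an adjusted interaction p of 1 (limma, all 20 mice). Its transcripts shared no 31-base word with another gene.

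**Figure D4:**
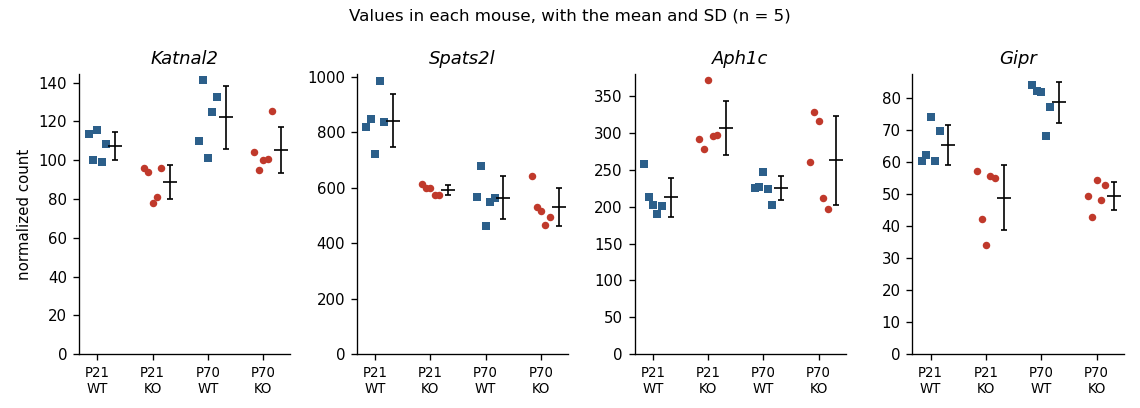
Normalized counts of Katnal2, Spats2l, Aph1c and Gipr in each of the 20 mice by age and genotype (KO circles, WT squares), with the mean and SD of 5 mice beside each group and axes from 0. KO and WT mice are separate for all 4 genes at P21 and for Gipr at P70.

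Cilia genes were a list of interest because the study measured ependymal cilia. The paper's enrichment analysis also reported an ependymal and a choroid plexus gene set as positively enriched at both ages, by another test on other lists. Of 68 motile-cilia genes tested, 5 had an unadjusted p under 0.05, all higher in KO mice, and 0 were lower, where 1.49% of all genes tested were higher and 0.948% lower by the same rule. Of the 68 differences 52 were above 0, with a median of 0.13, against 0.00 over all genes. Cfap46, a component of the central apparatus of the axoneme, was the only one with separate groups, at 203.2, 186.5, 202.1, 197.6 and 221.7 normalized counts in KO mice against 180, 135.5, 156.7, 152.9 and 162.4 in WT mice. KO mouse 2 and WT mouse 1 were closest to each other. Foxj1, the master regulator of motile cilia, had 314.2, 326.8, 412.5, 323.7 and 354.3 in KO mice against 269.9, 290.1, 317.1, 241.3 and 299.5 in WT mice, and its groups met only at KO mouse 1 and WT mouse 3. The others were Dnah11, an axonemal dynein heavy chain (difference 0.36), Drc7 (0.27) and Iqca (0.95). At P70 Cfap46 had 180.5 ± 24.5 in KO mice against 200.7 ± 13.1 in WT mice, a difference of -0.16. Without KO mouse 3 the median of the list was 0.07, with 43 of 67 differences above 0. Again 5 genes had an unadjusted p under 0.05 (limma), all higher in KO mice. The share over all genes without that mouse is not given here.

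Choroid plexus genes showed a like pattern with no separate groups. Of 32 tested, 6 had an unadjusted p under 0.05, all higher in KO mice (Folr1, Kcnj13, Enpp2, Calml4, Tmem72 and Car14, against 1.49% of all genes), and 30 differences were above 0, with a median of 0.19. Over all 33 listed genes the summed level was 40390, 49370, 53820, 35820 and 35720 normalized counts in KO mice. In WT mice it was 33540, 39750, 35620, 34020 and 39910. Most of each sum came from Ttr and Enpp2, which averaged 18130 and 14150 in KO mice and 14400 and 12330 in WT mice. KO mice 2 and 3 were high and KO mice 4 and 5 lay among the WT mice. Without KO mouse 3, 1 of the 32 genes had an unadjusted p under 0.05 (limma), 26 differences were above 0 and the median was 0.12. With KO mouse 3 and WT mouse 2 both left out, a choice made after seeing the data, these values were 3, 27 and 0.16. Of 26 mature oligodendrocyte genes, 24 differences were above 0, with a median of 0.11, and 2 genes, Myrf and Gpr37, had an unadjusted p under 0.05 and higher values in KO mice (1.49% of all genes). KO mouse 3 was again the highest (670500 summed, against 464800 to 549900 in the other KO mice), and without it the median was 0.06. Differences above 0 were also common in other lists. Of 15 glucocorticoid-induced genes 14 were above 0, with a median of 0.11, and 1 (Plin4, 0.54) had an unadjusted p under 0.05. KO mouse 3 had the highest sum here too (47300, against 31950 to 41720 in the other KO mice), and without it the median was 0.02 with 11 of 15 above 0. Of 22 astrocyte genes 20 were above 0, with a median of 0.05 and 0 genes with an unadjusted p under 0.05 (limma).

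The red-cell genes differed in the other direction. Of 7 blood-cell genes tested, 7 had differences below 0, with a median of -0.74, and 5 of them, the globins Hba-a1, Hba-a2, Hbb-bs and Hbb-bt and the erythroid heme enzyme Alas2, had an unadjusted p under 0.05. Over all genes tested the median was 0.00, and 0.948% were lower by the same rule. Hba-a1 had 3130, 5226, 7383, 7550 and 4272 normalized counts in KO mice against 9679, 8059, 15210, 6271 and 6840 in WT mice. WT mouse 3 was far above the others, KO mouse 1 was the lowest, and the groups overlapped. Without WT mouse 3 the median of the list was -0.55, with 4 genes under an unadjusted p of 0.05. How much blood stayed in each brain was not measured.

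**Figure D5:**
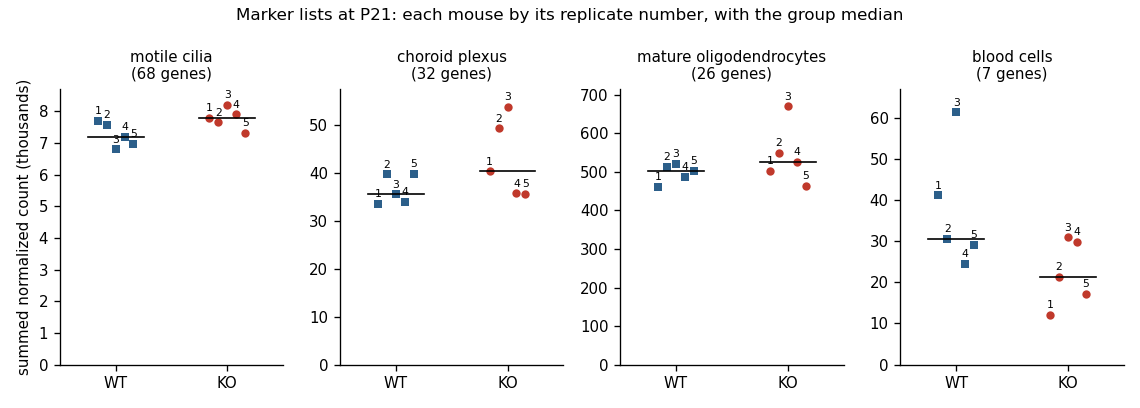
Summed normalized counts, scaled down as the axis label states, for each P21 mouse (WT squares, KO circles, labelled by replicate number), with the group median as a bar and axes from 0. The sums take in the 70 motile cilia, 33 choroid plexus, 26 mature oligodendrocyte and 9 blood cell genes measured. The panel titles give the number of these that were tested. The groups overlap in all 4 lists, KO mouse 3 is the highest in the choroid plexus and oligodendrocyte lists (53820 and 670500), and WT mouse 3 in the blood list (61310).

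The 81 genes were also compared with all genes by type, chromosome, level and shared sequence. They comprised 73 protein-coding genes (90.1%, against 85.4% of all genes tested), 4 antisense genes, 2 processed transcripts, 1 transcript model still to be experimentally tested and 1 unprocessed pseudogene. They lay on 20 chromosomes, with 11 on chromosome 7 (0.794% of its 1386 genes tested) and 1 on chromosome 9 (0.0975% of 1026). Their median level was 276 normalized counts, against 484 for all genes, and ranged from 10.2 to 8490. The median share of 31-base words found in other genes was 2.08%, against 1.7% for all genes tested, and 4 of the 81 (4.94%, against 5.66%) shared more than 50%: AC109138.8, Xlr3b, Trim34a and Gm44215. More than 10% was shared by 23 of the 81 (28.4%, against 24.5%). These included C530025M09Rik (39.1%, with Syndig1), Csf3r (23.1%, mostly with AC105061.2) and Flicr (22.7%, mostly with Foxp3). Tpmt (20.3%, mostly with Gm18807) and Igf2bp3 (18.6%, mostly with Malsu1) were also among them. Xlr3b, an X-linked gene imprinted in brain, had the largest fold of the 81 with 272.8, 409.8, 256.1, 337.8 and 393.7 in KO mice against 135.5, 211.8, 179.4, 41.07 and 252 in WT mice. WT mouse 5 nearly reached KO mouse 3, and 58.5% of its words were shared with Xlr3a. At P70 its values were 174 ± 90.2 and 188.9 ± 113.8 (SD, n = 5 each).

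The rule of no overlap has a sharp edge. Just inside it, Mta3 had a highest WT value of 1950 and a lowest KO value of 1950 after rounding, with a gap of 4.44e-05 on the log2 scale, and Ina a gap of 9.95e-05. Just outside it, Fam205a4 and Gm28037 met only at values of 0. Fam205a4 was listed at 0 in all mice except KO mouse 2 with 63.16 and KO mouse 3 with 173.2, and Gm28037 in all except WT mouse 2 with 21.75 and WT mouse 4 with 198.4. At the minimum mean, Gm3373 and Gm47939 passed and 2210412B16Rik and Hes7 did not.

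Fam205a4 and Gm28037 were 2 of 23 genes listed at 0 in 3 or more P21 mice and over 50 in at least 1. For 20 of the 23 (87%, against 5.66% of all genes tested) more than 50% of the 31-base words occurred in other genes, with a median of 100%. Gm9843, whose words all occur in the ribosomal gene Fau, had 0, 152.4, 136.4, 0 and 114 in KO mice against 55.88, 0, 117.1, 95.75 and 0 in WT mice. Gm6472, with 84.2% of its words in Rps7, reached 1569 and 1158 in KO mice 3 and 5 and 1590 in WT mouse 5, against 0 to 7.25 in the others. These values did not follow genotype. Lenep came nearest to doing so, with 0, 0, 0, 37.14 and 0 in KO mice against 34.89, 19.99, 98.42, 82.71 and 87.77 in WT mice, and 99.1% of its words belonged to Flad1. Its adjusted p was 0.988 (limma). Without KO mouse 4, the one KO mouse with a value above 0, it was 0.00038, and that omission removes the value that opposes the difference.

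The 3 of the 23 genes with almost no shared sequence were Gh, Prl and Hoxb8. Growth hormone and prolactin are made by the anterior pituitary. Gh had 2.908, 20.87, 1113, 6.244 and 0 normalized counts in KO mice against 2.28, 1811, 1.571, 0 and 0 in WT mice, and Prl reached 38.27 in KO mouse 3 and 58.84 in WT mouse 2. In the other mice Gh was at or below 20.87 and Prl at or below 5.232. Hoxb8, a gene of the spinal cord and caudal hindbrain, reached 143.7 in KO mouse 3 and 34.12 in KO mouse 1 and lay between 0 and 19.12 in the others. With KO mouse 3 and WT mouse 2 left out, 0 genes had an adjusted p under 0.05 (limma).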

How the data were processed

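RNA-seq signal values of 20 mouse brains were used as deposited. The authors quantified poly-A reads (TruSeq RNA kit v2, paired ends) by Salmon against GRCm38, corrected for GC bias, summed transcripts to genes with tximport and normalized the counts with DESeq2, so the table holds size-factor-scaled normalized counts per gene. The submitters' processing notes name Salmon 1.1.0, R 3.6.2 and DESeq2 1.26.0. The annotation release and the use of strand are not given in the sources used here. Whole reads could not be recovered from these values, so no count test was run and the depth of each library is unknown. The table holds no columns of the authors' comparisons. The paper's own DESeq2 comparison, a different test, reports small sets of higher and lower genes at P21 and was not repeated here.

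Genes with a mean of at least 10 over the 10 P21 mice were tested on log2(value + 1) with limma 3.58.1 (trended empirical Bayes, R 4.3.3) with Benjamini-Hochberg adjustment over all genes tested. The 10 P70 mice were treated alike, and the age by genotype interaction used all 20. Differences on this scale understate those of low genes. Replicates were separate mice. Exact two-sided permutation tests were made for single genes. Scripts were tested on simulated data. The 31-base words of each gene's GENCODE M21 transcripts were looked up in all other genes.

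Named genes were Katnal2, Katna1 and Katnal1, the 12 higher and 12 lower genes with separate groups and the smallest p, the 6 of each with the widest gap, genes with separate groups near Katnal2, on a gene list or at both ages, genes at 0 in 3 or more mice and over 50 in at least 1, and those next to the limits. Of these, 1 gene is not reported here. Other genes were picked after their values were seen. The members and the 24 gene lists (425 genes) were chosen with earlier results of these data known. Alternatives changed the filter, pseudocount, scaling, fit and mice.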

Additional observations from a re-analysis of the deposited data

Results flagged for a closer look

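In 33 genes, the KO and the WT group at P21 were each searched for a single mouse far from the other 4, by Dixon's ratio of the gap to the range (above 0.71 for 5 mice). This marked 6 of 66 groups, and chance alone marks about 1 in 20 groups. KO mouse 3 was the one apart in 3 of them, with 371.3 normalized counts of Aph1c against 278.4 to 297.3 in the other KO mice, 193.8 of Lhx5 against 168.1 to 175.4, and 127.5 of Irx3 against 96.4 to 101.1. Gm2115 was marked in both groups, with 709.5 in KO mouse 4 against 754.5 to 763.1 and 597.6 in WT mouse 3 against 662.6 to 683.8. For Sh3tc1, WT mouse 5 had 158.7 against 56.45 to 72.8.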

How the results depend on the processing

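Of 850 values under alternatives, 810 were scored as the same. For a count this meant staying within 1.5-fold of the value reported, so the balance of higher and lower genes could still turn. For a single gene it meant the same sign and the same side of an adjusted p of 0.05. Most of the values (697) were of named genes besides Katnal2. Of these 4 changed sign and 1 came to an adjusted p under 0.05 (limma). With the replicate number as a block, 732 genes instead of 429 had an unadjusted p under 0.05 and the smallest adjusted p was 0.255 (Spats2l, limma). The labels do not say whether mice of the same number belong together, and this was not tested. Their deviations correlated at 0.0272, 0.00511, 0.256, 0.143 and 0.0704, with 5 of 10 mice closest to their own number. All 20 mice in 1 fit gave 200. The count of P21 genes with the same direction and an unadjusted p under 0.05 at P70, 1 in the report, was 2 with a minimum mean of 1, with no filter and with the block, 3 with all 20 mice in 1 fit and 3 without both P70 replicate 5 mice (Abca4, Krt18 and Gipr). With KO mouse 3 and WT mouse 2 both left out, an alternative chosen after seeing the data, 221 higher and 226 lower genes had separate groups, as fewer mice separate more easily, and Katna1 differed by 0.0377. Leaving out each mouse in turn gave 0 to 1 genes with an adjusted p under 0.05 (1 without KO mouse 4, Lenep, and 1 without WT mouse 3, Spats2l), 353 to 657 with an unadjusted one (657 without KO mouse 4), 76 to 130 higher and 60 to 104 lower genes with separate groups, 1 to 3 for the P70 count (3 without P70 WT mouse 5, 2 without P70 KO mouse 5 or P70 WT mouse 1), -0.299 to -0.226 for Katnal2, -0.0596 to 0.0138 for Katna1 (0.0138 without WT mouse 2) and -0.0269 to 0.0684 for Katnal1 (-0.0156 without KO mouse 4, -0.0269 without WT mouse 3). The causes were not tested. The depth of the libraries is unknown, so counting error in low genes could not be separated from the spread between mice.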
